A study of Mus musculus with 8 samples.

Results

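Immune checkpoint receptors and their ligands were examined in bulk RNA sequencing of C26 tumors with and without the tumor cells' own IL-6. The group held 10 genes, taken by symbol from the 27179 genes of the deposited table, and all 10 had a row. They were Pdcd1, Cd274, Pdcd1lg2, Ctla4, Cd80, Cd86, Lag3, Havcr2, Lgals9 and Tigit. The tumors were subcutaneous C26 colon carcinomas grown in male CD2F1 mice, of which 4 came from cxC26 scr cells, the cachectic parent line given a scrambled guide RNA, and 4 from cxC26 IL6KOs1 cells, in which Il6 had been disrupted by CRISPR/Cas9. The knockout line is 1 subclone, so what the disruption does and what this clone carried anyway cannot be told apart. In the study's other CD2F1 experiments with this clone, more knockout than control cells were injected, and the knockout tumors reached cachexia later. Neither the cell number nor the day is given for the sequenced tumors. If they were grown likewise, inoculum and tumor age cannot be told apart from the disruption either. All tumors were taken from mice with cachexia, a body weight loss of more than 15%, so both groups share that state. The labels do not say whether each tumor came from its own mouse, and p-values measure the spread between these tumors.

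Immune checkpoints are brakes on T cells. A receptor on the activated T cell, such as PD-1 (gene Pdcd1), CTLA-4, LAG-3, TIM-3 (gene Havcr2) or TIGIT, is bound by a ligand on a tumor cell, a macrophage or a dendritic cell, and the signal dampens killing and cytokine release. PD-1 is bound by PD-L1 (gene Cd274) and PD-L2 (gene Pdcd1lg2), CTLA-4 competes with the activating receptor CD28 for CD80 and CD86, LAG-3 binds MHC class II, and galectin-9 (gene Lgals9) is a ligand described for TIM-3. PD-L1 is a well-known target gene of interferon gamma. TIM-3 is also made by macrophages and dendritic cells.

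Promoter sequence was available in RefSeq for 8 of the 10 genes (GRCm38.p6, 250 bases before to 50 bases after each start of transcription). Motifs of inducible immune genes were searched on both strands, and 3 of the 8 genes held a match. The letters searched were GAAA, any 2 bases and GAAA, the core of the interferon-stimulated response element, and TTCNNNGAA, the interferon gamma activated site. TGANTCA, a looser form of the AP-1 site TGA(C/G)TCA, was searched as well. These letters are short, and 3.44%, 8.30% and 7.81% of all 32851 promoter windows held a match to them, in that order. The 100 bases that hold each match upstream of a start are shown because Havcr2 and Lgals9 are the members that rose and Cd80 is the ligand with the highest level per kilobase in the cxC26 scr tumors. Capitals mark the match, which is a match of letters and not a measured binding site.
Cd80, chr16:38458833-38458932, plus strand: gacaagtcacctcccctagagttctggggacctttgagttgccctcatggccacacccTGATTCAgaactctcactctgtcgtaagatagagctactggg
Havcr2, chr11:46454681-46454780, plus strand: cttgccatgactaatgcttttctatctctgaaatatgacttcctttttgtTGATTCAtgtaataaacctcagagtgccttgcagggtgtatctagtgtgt
Lgals9, chr11:78984925-78985024, minus strand: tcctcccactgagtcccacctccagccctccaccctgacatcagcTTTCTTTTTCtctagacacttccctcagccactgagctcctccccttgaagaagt
The Cd80 and Havcr2 matches, at 42 to 36 and 200 to 194 bases before the start, are to the looser AP-1 letters. Both have T in the middle and not the C or G of the AP-1 site. The Lgals9 match is the interferon response core read on the other strand, at 55 to 46 bases before the start, and a further match lay 16 to 25 bases into the transcript. Pdcd1, Pdcd1lg2 and Ctla4 had no match to these letters in the window. The windows of Cd274 and Tigit had none either. Like the window of Cd80, they lie around starts inside the gene spans given below. The letters at the outer starts of Cd80, Cd274 and Tigit were therefore not read, and the Cd80 match is placed by an inner start.

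Values are log2 CPM, the log2 of the reads scaled to library size with an offset of 0.5 reads, and between 14158989 and 17048062 reads per tumor lay on genes. A gene was tested with limma when it reached 1 CPM in at least 4 of the 8 tumors, which 13262 genes and 8 members did, and Pdcd1 and Ctla4 did not. Il6 itself was read 326 to 438 times in the controls and 56 to 86 times in the knockout tumors, a log2 fold change of -2.45 ± 0.165 (SE). The tumors were also checked for their tissue label: Epcam, an epithelial marker, was read 1 to 3 times in the controls and 0 to 14 times in the knockout tumors. Other epithelial markers differed between the groups: Krt18 was read 21 to 30 and 140 to 282 times, Cdh1 17 to 37 and 45 to 87 times, and the intestinal factor Cdx2 17 to 34 and 0 to 1 times, while Krt8 had 3 to 6 and 9 to 15 reads. cxC26 IL6KOs1 tumor 1 stood apart for immune genes. Its 4 pan-leukocyte markers summed to 8305 reads, against at most 4847 in the other 3 tumors of its group and 2443 to 2781 in the controls. The members' fold changes are therefore given with and without that tumor.

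Across the 8 tested members, 2 rose in the cxC26 IL6KOs1 tumors (Havcr2 and Lgals9) and 1 fell (Pdcd1lg2) at an adjusted p-value under 0.05 (limma, Benjamini-Hochberg over all tested genes). The other 5 (Cd274, Cd80, Cd86, Lag3 and Tigit) did not pass. This count is close to the background, since 19.1% of all tested genes were called higher and 20.7% lower, so as a group the members did not stand out from the transcriptome. Without cxC26 IL6KOs1 tumor 1, Havcr2 and Lgals9 were again called higher and Pdcd1lg2 lower, and no other member passed. The median log2 fold change of the 8 members was 0.36, beside -0.0029 over all tested genes, and 0.037 without that tumor.

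**Figure D1:**
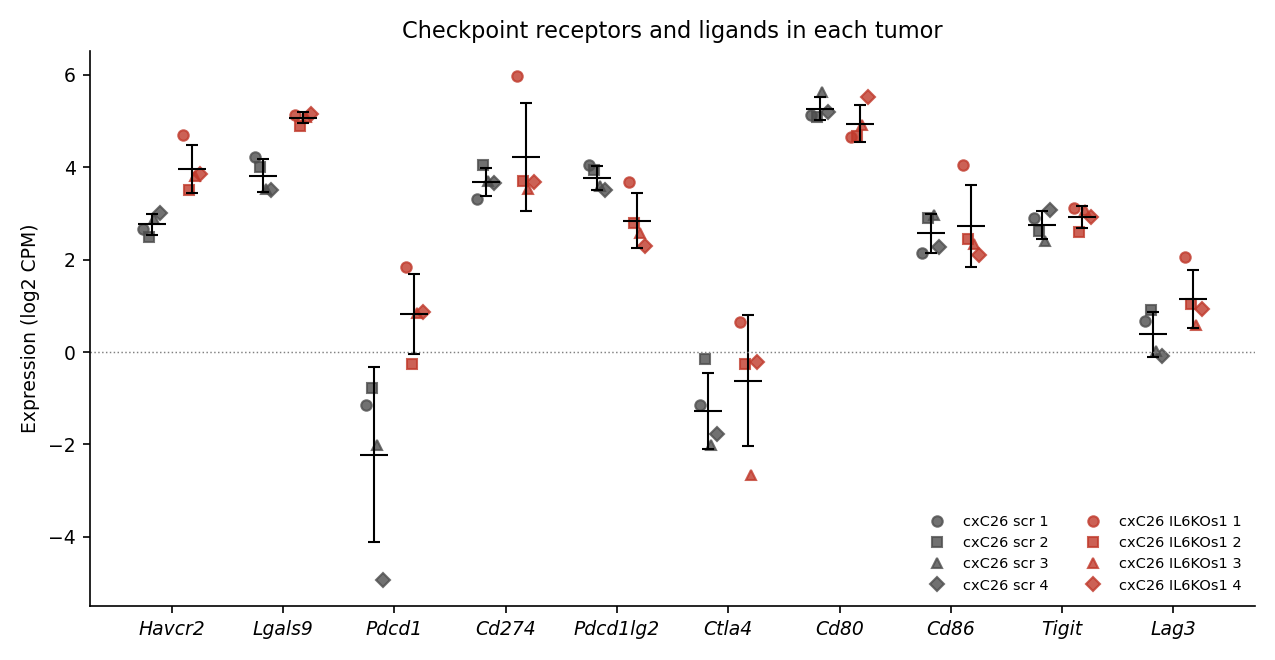
Expression of the 10 checkpoint genes in log2 CPM (vertical axis), one point per tumor, 4 cxC26 scr tumors in grey and 4 cxC26 IL6KOs1 tumors in red, with group means and SD as bars. Lgals9, Havcr2 and Pdcd1 do not overlap between groups, and the circle of cxC26 IL6KOs1 tumor 1 sits alone at the top for Cd274 (5.97) and Cd86 (4.04).

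Galectin-9 and its receptor TIM-3 were the pair that rose together. Lgals9 (chr11:78962979-78984924, minus strand, GRCm38) was at 4.22, 4.01, 3.52 and 3.51 log2 CPM in cxC26 scr tumors 1 to 4 and at 5.13, 4.90, 5.09 and 5.16 in cxC26 IL6KOs1 tumors 1 to 4. All 4 knockout tumors lay above all 4 controls, and they spread by less (SD 0.12 against 0.36). The increase was 2.39-fold, a log2 fold change of 1.26 ± 0.162 (SE), with an adjusted p = 0.000155 in limma. Without cxC26 IL6KOs1 tumor 1 it was 1.23.

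Havcr2 (chr11:46454931-46481255, plus strand) was at 2.66, 2.50, 2.88 and 3.00 log2 CPM in the cxC26 scr tumors and at 4.71, 3.50, 3.81 and 3.86 in the cxC26 IL6KOs1 tumors. The groups did not overlap, and tumor 1 was the highest of all. The increase was 2.31-fold, a log2 fold change of 1.21 ± 0.233 (SE), with an adjusted p = 0.00182 in limma, and 0.96 without tumor 1, with an adjusted p = 0.00112. Groups without overlap were common in these data: 17.8% of tested genes lay higher and 19.3% lower in every cxC26 IL6KOs1 tumor.

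The ligands described for TIM-3 beside galectin-9 were not called higher. Ceacam1 had a log2 fold change of 0.18 (adjusted p = 0.747 in limma), and Hmgb1, an alarmin released by dying cells, fell by 0.30 on the log2 scale (adjusted p = 0.0363), a call lost without knockout tumor 1 (adjusted p = 0.0914). Bag6, an adaptor that binds the tail of TIM-3, had a log2 fold change of -0.26 that did not pass (adjusted p = 0.0642).

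PD-1 itself was barely read in the cxC26 scr tumors. Pdcd1 (chr1:94038305-94052553, minus strand) had 7, 9, 3 and 0 reads there and 58, 11, 28 and 26 reads in the cxC26 IL6KOs1 tumors. Every knockout tumor had more than every control, by as little as 11 against 9 reads, and tumor 1 again had the most. With the filter lowered to 10 reads over all tumors, the log2 fold change was 3.05 ± 0.797 (SE), with an adjusted p = 0.0114 in limma, at which 15.9% of the genes tested were called higher. The size of this change depends on the tumor with 0 reads, without which it was 2.14 (2.71 without knockout tumor 1), and with no filter at all the adjusted p was 0.0594. A two-sided exact permutation test gave p = 0.0286, the smallest that 4 against 4 tumors allow.

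PD-L1 was level in 7 of the 8 tumors and high in the other. Cd274 (chr19:29362107-29388095, plus strand) was at 3.30, 4.04, 3.70 and 3.67 log2 CPM in the cxC26 scr tumors and at 5.97, 3.71, 3.52 and 3.69 in the cxC26 IL6KOs1 tumors. cxC26 IL6KOs1 tumor 1 had 1021 reads, and the other 3 of its group had 181 to 186, within the control range of 164 to 266. The log2 fold change of 0.55 ± 0.445 (SE) did not pass (adjusted p = 0.351 in limma), and without tumor 1 it turned to -0.036, with an adjusted p = 0.886.

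PD-L2, the other PD-1 ligand, fell. Pdcd1lg2 (chr19:29410919-29472927, plus strand) was at 4.04, 3.94, 3.60 and 3.50 log2 CPM in the cxC26 scr tumors and at 3.69, 2.80, 2.58 and 2.30 in the cxC26 IL6KOs1 tumors. Tumor 1 alone reached into the control range, and the other 3 lay below every control. The level was 52.6% of that in the controls, a log2 fold change of -0.93 ± 0.262 (SE), with an adjusted p = 0.0152 in limma, whereas the exact permutation test gave p = 0.0857. Without tumor 1 the change was -1.21, with an adjusted p = 0.000392, and with no filter on low genes it missed the threshold (adjusted p = 0.0552). Cd274 and Pdcd1lg2 are neighbours on chromosome 19, whose tested genes had a median log2 fold change of 0.33. With the chromosome median subtracted, Pdcd1lg2 stood at -1.26 and Cd274 at 0.22. Each of the 2 genes overlaps an antisense transcript, A930007I19Rik and AC119228.1 respectively, and the strand setting of the counting is not given in the sources used here, so their reads cannot be told apart. Rgmb, a further partner described for PD-L2, fell by 0.51 on the log2 scale (adjusted p = 0.00298).

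The genes around PD-L1 in tumor 1 were read beside it. Ifng, the gene for interferon gamma, had 33 reads in cxC26 IL6KOs1 tumor 1, 0, 1 and 2 reads in the other 3, and 0 reads in each cxC26 scr tumor. Irf1, a transcription factor induced by interferon gamma, had 2795 reads in tumor 1, against at most 920 in the other knockout tumors. H2-Aa and H2-Ab1, the MHC class II chains that LAG-3 recognises, had 4113 and 4415 reads in tumor 1 and 272 to 370 and 285 to 416 in the other 3. Cd274 was thus high in the tumor with the most reads of Ifng and MHC class II genes, and their part in its level was not tested. Over the groups Ifngr1, a chain of the interferon gamma receptor, rose by 0.75 on the log2 scale, and Ifngr2, Jak1, Jak2, Irf1 and Socs1 did not pass. The 3 genes with the pattern most like that of Cd274, by the root mean square difference of centred log2 CPM over the 8 tumors, were H2-DMb2 (0.160), Pfkfb3 (0.262) and H2-DMa (0.294), a description that rests on tumor 1.

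**Figure D2:**
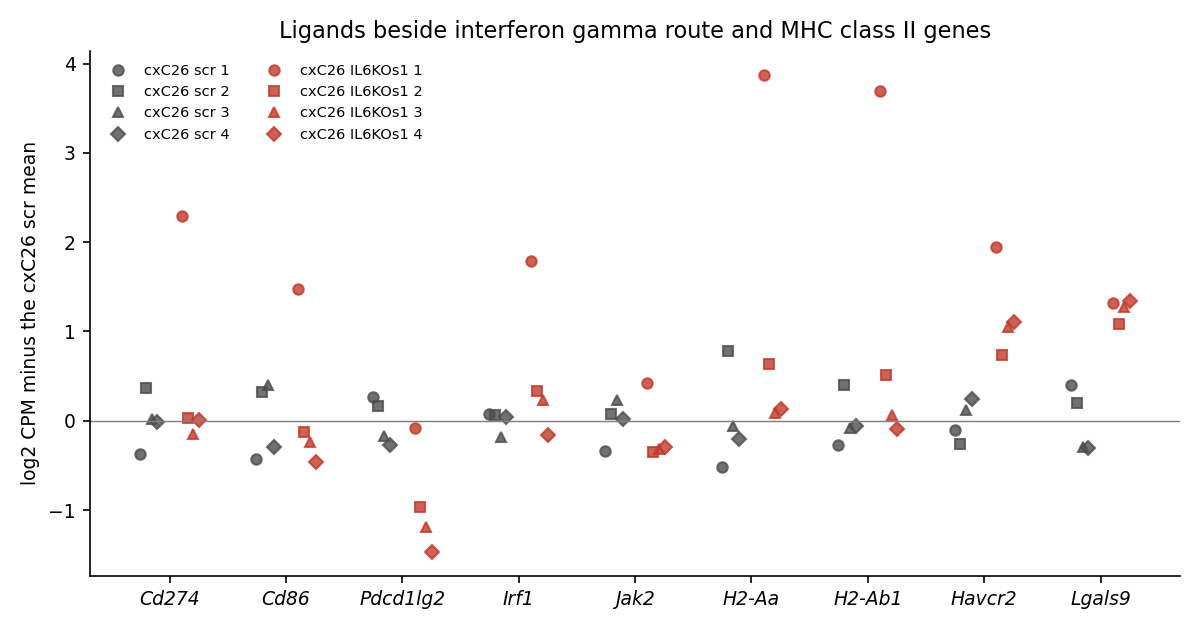
Ligands and TIM-3 beside interferon gamma route and MHC class II genes, as log2 CPM minus the mean of the cxC26 scr tumors (vertical axis), one point per tumor. The red circle, cxC26 IL6KOs1 tumor 1, lies apart from the other 7 tumors for Cd274, Cd86, Irf1, H2-Aa and H2-Ab1, whereas Lgals9 is raised alike in all 4 knockout tumors.

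CTLA-4 was near the limit of reading in both groups, and its ligands did not differ by the test. Reads of Ctla4 (chr1:60909025-60915832, plus strand) numbered 7, 14, 3 and 4 in the controls and 25, 11, 2 and 12 in the knockout tumors. The groups overlapped, and the log2 fold change of 0.66 under the lowered filter had an adjusted p = 0.494 in limma, and was 0.23 without tumor 1. A processed pseudogene, Rpl18-ps1, lies within Ctla4 on the same strand, so the low counts are uncertain. Cd28, the activating competitor of CTLA-4, had 0, 7, 1 and 0 reads in the controls and 21, 7, 13 and 13 in the knockout tumors, too few for the filter.

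Cd80 (chr16:38457430-38495958, plus strand) was at 5.14, 5.08, 5.63 and 5.20 log2 CPM in the cxC26 scr tumors and at 4.65, 4.68, 4.92 and 5.51 in the cxC26 IL6KOs1 tumors. The first 3 knockout tumors lay below every control, and tumor 4 lay above all but one. The log2 fold change of -0.32 ± 0.187 (SE) did not pass (adjusted p = 0.190 in limma). Without tumor 4 the fall was larger, at -0.52, with an adjusted p = 0.0178, and without tumor 1 it was -0.23.

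Cd86 (chr16:36568956-36666158, minus strand) was at 2.14, 2.90, 2.97 and 2.28 log2 CPM in the cxC26 scr tumors and at 4.04, 2.45, 2.33 and 2.11 in the cxC26 IL6KOs1 tumors. Here too tumor 1 was above all others and the remaining 3 lay within or just below the control range. The log2 fold change was 0.16 ± 0.378 (SE), with an adjusted p = 0.760 in limma, and -0.27 without tumor 1. The genes nearest in pattern were Fcrlb (0.220), Clec4n (0.224) and Fcgr2b (0.231), the last a myeloid and B cell Fc receptor.

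**Figure D3:**
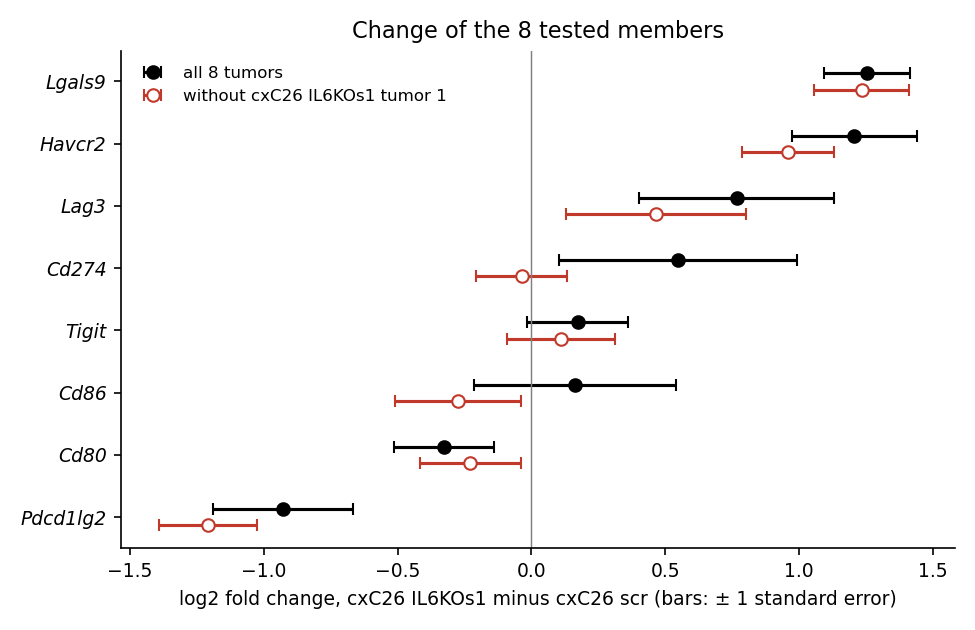
Log2 fold change of the 8 tested members, cxC26 IL6KOs1 minus cxC26 scr (horizontal axis), from all 8 tumors (black) and without cxC26 IL6KOs1 tumor 1 (red outline), with bars of 1 standard error. Lgals9 and Havcr2 stay positive and Pdcd1lg2 stays negative, whereas Cd274 moves from 0.55 to -0.036 and Cd86 from 0.16 to -0.27.

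LAG-3 and TIGIT, both receptors of T and NK cells, did not pass the test. Lag3 (chr6:124904359-124912434, minus strand) was at 0.67, 0.91, 0.03 and -0.09 log2 CPM in the cxC26 scr tumors and at 2.05, 1.04, 0.58 and 0.92 in the cxC26 IL6KOs1 tumors. Tumors 1, 2 and 4 of the knockout group lay above every control, tumor 4 only just, and tumor 3 lay within the control range. The log2 fold change of 0.77 ± 0.364 (SE) had an adjusted p = 0.115 in limma, and 0.47 without tumor 1. At 14 to 67 reads per tumor, a change of this size was not resolved.

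Tigit (chr16:43626137-43665125, minus strand) was at 2.90, 2.62, 2.41 and 3.07 log2 CPM in the cxC26 scr tumors and at 3.11, 2.59, 3.07 and 2.92 in the cxC26 IL6KOs1 tumors. The ranges lay almost on top of each other, and tumor 1 did not stand out. The log2 fold change was 0.17 ± 0.189 (SE), with an adjusted p = 0.493 in limma, and 0.11 without tumor 1. The ligands that TIGIT shares with the activating receptor CD226 fell, with log2 fold changes of -0.41 for Pvr (adjusted p = 0.0140) and -0.73 for Nectin2 (adjusted p = 0.00147), while Nectin3 stood at 0.37 and did not pass. Cd226 had 2, 5, 2 and 1 reads in the controls and 15, 2, 13 and 10 in the knockout tumors. For Cd96, another listed partner, the reads were 0, 1, 1 and 0 and then 15, 5, 9 and 10. Both genes had too few for the filter.

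T cell markers differed between the groups, and the receptors are given beside them. The 3 CD3 genes, Cd3d, Cd3e and Cd3g, which encode parts of the T cell receptor complex, summed to 4, 14, 2 and 4 reads in the controls and to 98, 37, 61 and 80 in the knockout tumors. All 10 T cell markers together summed to 16 to 68 reads in the controls and 163 to 314 in the knockout tumors. The 5 of them that passed the filter (Cd3g, Cd2, Cd8a, Cd8b1 and Cd4) were all called higher, but Cd3g, Cd2, Cd8a and Cd8b1 passed it through the knockout group. In bulk tissue, a gene with fewer reads may reflect fewer cells of a type or less RNA per cell, and these cannot be told apart from the reads alone. By flow cytometry, the study counted T cells, B cells, macrophages and neutrophils in tumors of this clone and of the control line. It counted them at an early phase and once cachexia had developed, and reports a general rise in the knockout tumors early on. Those counts were not compared with the reads here.

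The checkpoint receptors are also given per CD3 read, a scale on which a gene falls unless it rises as much as the CD3 genes. CD3 reads pooled over 4 tumors numbered 24 in cxC26 scr and 276 in cxC26 IL6KOs1. Pooled over 4 tumors, Pdcd1 had 0.792 reads per CD3 read in cxC26 scr and 0.446 in cxC26 IL6KOs1, Ctla4 had 1.17 and 0.181, and Lag3 had 3.50 and 0.525. Tigit went from 17.8 to 1.68 reads per CD3 read, with 75 to 129 reads in control tumors that had 2 to 14 CD3 reads. The control ratios rest on 24 CD3 reads in all, of which cxC26 scr tumor 2 held 14, and without that tumor they were 32.8 for Tigit, 5.40 for Lag3, 1.40 for Ctla4 and 1.00 for Pdcd1. In the fit across all genes after subtraction of the mean of the T cell markers, Lag3, Tigit and Havcr2 were all called lower. So were 99.2% of all tested genes, and nothing about the members is read from this fit or from the ratios.

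**Figure D4:**
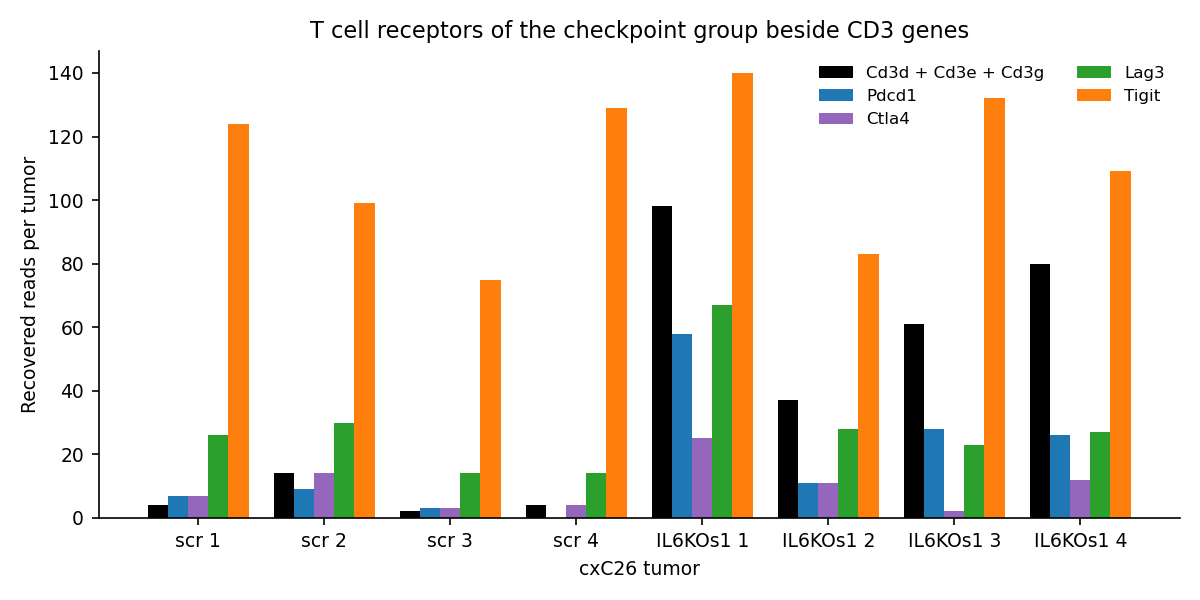
Recovered reads per tumor (vertical axis) of the summed CD3 genes and of Pdcd1, Ctla4, Lag3 and Tigit in the 4 cxC26 scr and 4 cxC26 IL6KOs1 tumors. CD3 reads are 2 to 14 in the controls and 37 to 98 in the knockout tumors, whereas Tigit spans 75 to 129 and 83 to 140.

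Macrophage and monocyte markers rose as well. All 10 of them (among them Lyz2, Itgam, Csf1r and Adgre1, which encodes F4/80) were called higher, with a median log2 fold change of 1.23. Averaged over the 10 genes, the controls stood at 6.01 ± 0.09 log2 CPM and the knockout tumors at 7.18 ± 0.26 (SD over n = 4 tumors each). The increases of Havcr2 and Lgals9, at 1.21 and 1.26, were therefore about the size of the increase of these markers. Measured against the marker mean, Havcr2 differed by 0.03 (exact permutation p = 0.914) and Lgals9 by 0.08 (exact permutation p = 0.686) on the log2 scale, and the groups overlapped for both.

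PD-L2 and CD80, both of the B7 family, were lower on the scale of the macrophage markers, as most genes were. Against the marker mean, Pdcd1lg2 was at -2.50 to -1.84 in the cxC26 scr tumors and at -4.83 to -3.85 in the cxC26 IL6KOs1 tumors, a difference of -2.10. Cd80 was at -1.01 to -0.42 and at -2.89 to -1.63, a difference of -1.50. Neither overlapped between groups, with an exact permutation p = 0.0286 each, the smallest possible, but 82.2% of all tested genes lay lower without overlap on this scale. Cd86 differed by -1.01 (exact permutation p = 0.0857) and Cd274 by -0.63 (exact permutation p = 0.2), and without knockout tumor 1 these were -1.33 and -1.09, with -1.29 for Cd80 and -2.27 for Pdcd1lg2. Havcr2 and Lgals9 stood at -0.10 and 0.18 without it. On this scale limma called 4 of the 6 lower and 0 higher, where 87.8% of all tested genes were called lower and 1.82% higher, and these calls rest on standard errors that leave out the error of the marker mean that all genes share. Nothing about the members is read from these lower values.

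**Figure D5:**
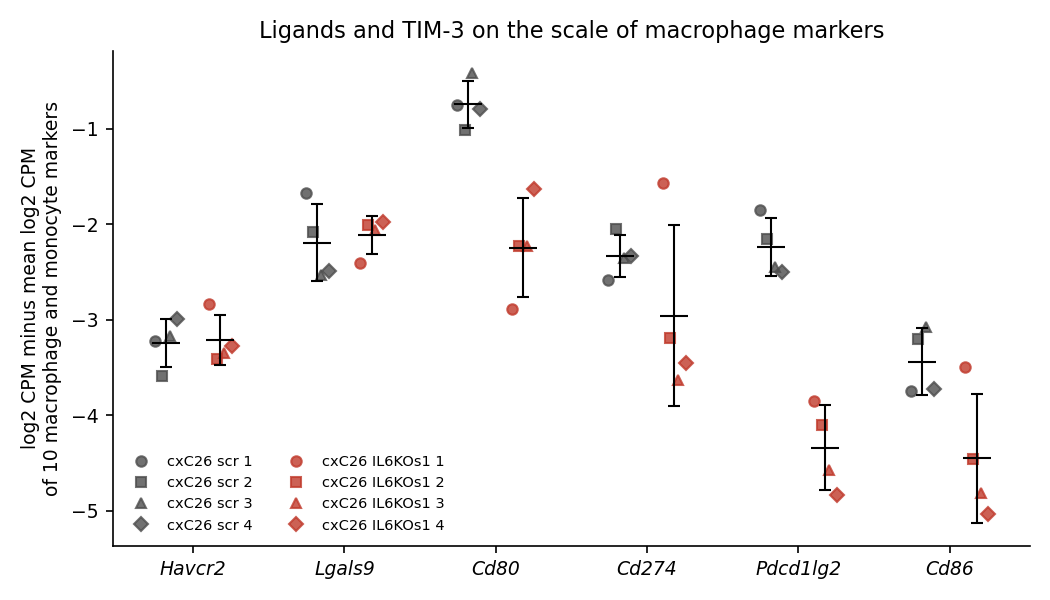
Log2 CPM of TIM-3 and the ligands minus the mean log2 CPM of 10 macrophage and monocyte markers (vertical axis), one point per tumor with group means and SD. Havcr2 and Lgals9 overlap between cxC26 scr (grey) and cxC26 IL6KOs1 (red), whereas Cd80 and Pdcd1lg2 do not, at -1.50 and -2.10 lower on average.

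Dendritic cell markers, of interest because these cells carry CD80, CD86 and PD-L2, did not move together. Itgax and Zbtb46 fell, with log2 fold changes of -1.89 and -2.42 (adjusted p = 0.00259 and 6.95e-06 in limma), and they were the 2 of 8 markers that passed the filter. The log2 differences of the other 6 were all above 0 and untested, from 0.29 for Batf3 through 0.42 for Cd209a, 0.46 for Clec9a and 1.43 for Flt3 to 1.59 for Ccr7 and 1.60 for Xcr1. Itgax encodes CD11c, which macrophages also carry, and Zbtb46 marks conventional dendritic cells. The counts of the 6 untested markers were low: Xcr1, for one, had 2 to 5 reads in the controls and 6 to 17 in the knockout tumors, and Clec9a 5 to 10 and 5 to 16. The part of the dendritic cell markers in the fall of Pdcd1lg2 was not tested.

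Among other cell types, the 4 endothelial markers were not called in either direction. S100a8 was the 1 of 3 tested neutrophil markers called higher, while Ly6g had 0 to 2 reads. In the NK list Klrk1 was the only gene tested, and it passed the filter through the knockout group, with 1 to 5 reads in the controls and 24 to 113 in the knockout tumors. Ncr1 had 55 reads in tumor 1 against 3 to 15 in the other knockout tumors. In the B cell list Cd79a alone was tested and was not called. Of the 3 tested regulatory T cell markers, Ikzf2 fell by 1.57 on the log2 scale and Tnfrsf18 rose by 1.02, and Foxp3, the defining factor, had 5 to 15 reads in every tumor.

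Of the other inhibitory receptors and ligands, 13 were tested, and 6 were called higher and 2 lower, beside 19.1% and 20.7% of all tested genes. Their median log2 fold change was 0.12, and -0.093 without knockout tumor 1, where the same 6 were called higher and 1 lower. The 6 were Vsir, the gene for VISTA (0.55), Sirpa, the macrophage receptor for the signal CD47 (0.72), Lilrb4a (1.11), Lair1 (1.04), Cd200 (1.00) and its receptor Cd200r1 (1.20). Cd276, the gene for B7-H3, fell by 0.84 and Nt5e, the gene for CD73, an enzyme that makes adenosine, fell by 0.56, the latter call being lost without tumor 1 (adjusted p = 0.0553). In tumor 1 Lair1 had 681 reads against 155 to 215 in the other knockout tumors, and without it the log2 fold change of Lair1 was 0.62 and that of Vsir 0.35. Ido1, an enzyme that degrades tryptophan, was below the filter, with 0, 3, 0 and 0 reads in the controls and 70, 7, 9 and 6 in the knockout tumors.

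Among 6 tested costimulatory genes, 1 was called higher and 1 lower, beside 19.1% and 20.7% of all tested genes. Tnfsf9, the ligand 4-1BBL, fell by 2.89 on the log2 scale (adjusted p = 1.3e-06 in limma). Its receptor Tnfrsf9 had a log2 fold change of 0.01 and did not pass. Reads of Tnfsf9 numbered 1122 to 1423 in the controls and 113 to 260 in the knockout tumors. Tnfrsf18 (GITR) was called higher by a narrow margin (adjusted p = 0.0445), its groups overlapped, and the call was lost with the lowered filter (0.0524), with no filter (0.157) and without tumor 1 (0.0963). The partners of the members, 10 tested, gave 1 higher and 4 lower, beside the same 19.1% and 20.7% of all tested genes. The gene called higher was Lgals3 (1.35), which encodes a galectin that binds LAG-3. Those called lower were Pvr, Nectin2, Hmgb1 and Rgmb, given above, and without knockout tumor 1 the list gave 3 lower.

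Of 8 signalling molecules that act below these receptors, 6 were called higher, beside 19.1% of all tested genes, with a median log2 fold change of 1.21. Of the 6, Zap70 and Lat passed the filter through the knockout group, as every control was below 1 CPM. The phosphatases that inhibitory receptors recruit split: Ptpn6 (SHP-1), restricted largely to blood cells, rose by 1.22 and Inpp5d (SHIP-1) by 0.99, whereas the ubiquitous Ptpn11 (SHP-2) fell by 0.27 on the log2 scale. Of the T cell receptor cascade, Lck rose by 1.19 and Lcp2 by 1.43, and the log2 fold changes of Zap70 and Lat were 1.76 and 1.52. Without tumor 1 the call of Zap70 was lost (adjusted p = 0.0879). Ptprc, the pan-leukocyte gene for CD45, rose by 1.03 in the same tumors, and the 4 pan-leukocyte markers had a median of 1.00.

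Genes that regulate T cell activation and exhaustion moved in both directions. Of 10 tested, 2 were called higher and 3 lower, beside 19.1% and 20.7% of all tested genes. The cytotoxic gene Gzmb rose by 3.11 on the log2 scale. The 3 NR4A receptors fell, with log2 fold changes of -2.22 for Nr4a1, -1.12 for Nr4a2 and -2.18 for Nr4a3. Prf1, the gene for perforin, was called higher (3.02, adjusted p = 0.0401), but had 190 reads in tumor 1 and 13 to 16 in the other knockout tumors, against 3, 20, 4 and 0 in the controls, and the call was lost without tumor 1 (adjusted p = 0.0958). Prdm1 instead gained a call: its log2 fold change of -0.86 did not pass (adjusted p = 0.0640 in limma). Without tumor 1 it was -1.30 (adjusted p = 5.97e-05). NR4A genes are immediate early genes of many cell types. Nr4a1 had 5212 to 8434 reads in controls that held 16 to 68 T cell marker reads. Tox and Tox2, which drive exhaustion, had at most 6 reads in any tumor and were below the filter.

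In levels per length (CPM per kilobase of exon), the controls ran from Cd80 at 10.5 through Tigit (7.40), Pdcd1lg2 (7.03) and Lgals9 (6.73) to Cd274 (3.58), Havcr2 (2.50), Cd86 (1.67) and Lag3 (0.629), with Ctla4 (0.188) and Pdcd1 (0.154) last. Cd80 did not overlap its neighbour, nor did Lgals9 and Cd274, Cd86 and Lag3, or Lag3 and Ctla4, while all other neighbours overlapped between tumors. In the cxC26 IL6KOs1 tumors Lgals9 led at 15.8 CPM per kilobase and did not overlap Cd80 (8.54), which came next. Below it Tigit (8.30), Cd274 (6.92), Havcr2 (6.05), Pdcd1lg2 (3.91), Cd86 (2.13), Lag3 (1.12), Pdcd1 (1.03) and Ctla4 (0.353) each overlapped the next. Exon lengths were those of the GENCODE M21 gene models of GRCm38.

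By the same measure of pattern, the nearest genes of Havcr2 were Sla (0.122), Pik3cg (0.149) and Hcls1 (0.154), all known from blood cells. Those of Lgals9 were Them6 (0.106), Sdf2l1 (0.128) and Lfng (0.132), and those of Pdcd1lg2 were Cadm3 (0.199), P4ha2 (0.211) and Hk2 (0.217). Camk4 (0.140) lay nearest Lag3, Tigd2 (0.118) nearest Tigit and Lmbrd2 (0.106) nearest Cd80. These are the smallest distances among 13262 genes over 8 tumors and carry no test.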

How the data were processed

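RNA from 8 tumors was sequenced, 4 per group, and samples were grouped by their titles. The authors aligned reads with HISAT2 to mm10 (GRCm38), counted them with featureCounts and deposited log2 CPM from limma-voom; bcl2fastq 2.17 is named in the processing notes, while annotation and strandedness of the counting are not given in the sources used here. Whole reads were recovered by inverting the offsets (0.5 reads, library size plus 1), and 100% of values came out whole within 0.05 reads. The read totals set the precision of low genes.

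Differences were tested in R 4.3.3 with limma 3.58.1 (lmFit, eBayes with trend, no covariates, Benjamini-Hochberg, threshold 0.05) on genes with at least 1 CPM in 4 tumors. For single values, a two-sided exact permutation test ran over 70 splits. Marker scales subtracted the mean log2 CPM of a marker list from every gene. Named genes were all members, Il6, the called genes of each list (up to 6 by mean expression) with genes behind small counts, and the 3 genes nearest each tested member. A few others, such as Ifng, Ido1, Tox and Clec9a, were named after their values were seen, as context. The members and gene lists were chosen with earlier results of these data known. Alternatives were other filters, scalings, variance models, a pseudocount, a replicate block, left-out tumors and subtracted chromosome medians. Chosen after seeing the data were summed T cell marker CPM, left-out tumors under the lowered filter, the lists without knockout tumor 1, the CD3 ratios without control tumor 2 and the share of genes without overlap on the macrophage scale. The file holds 1319 rows without a symbol, which stayed in the fit. Of the listed genes, Pvrig was not analysed here. Some results of the lists are not reported here.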

Additional observations from a re-analysis of the deposited data

Results flagged for a closer look

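Among 26 groups of 4 tumors tested for a value far from the rest (members, Il6 and scores), 2 exceeded Dixon's 95% limit for the gap to the nearest tumor over the range, which chance does in about 1 of 20 groups. Cd274 in cxC26 IL6KOs1 tumor 1 stood at 5.97 log2 CPM, where the other 3 tumors were at 3.52 to 3.71, a gap of 0.924 of the range. Il6 in cxC26 IL6KOs1 tumor 3 stood at 2.46 log2 CPM, where the others were at 1.99 to 2.04, a gap of 0.894, and this value remained below every cxC26 scr tumor.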

How the results depend on the processing

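Havcr2 and Lgals9 were called higher under every alternative to the fit. The count of members called lower fell from 1 to 0 with no filter and was 1 to 2 when each tumor was left out in turn. On the macrophage scale that count was 4, with 2 when Ptprc alone was subtracted and 3 to 4 with a tumor left out; on the T cell scale it was 3, and 0 with Ptprc alone, where Havcr2 turned to 0.18. With a tumor left out, the log2 fold change ran from -0.036 to 0.78 for Cd274 and from -0.27 to 0.37 for Cd86, which with the chromosome median subtracted stood at -0.0049. On the macrophage scale it ran from -0.10 to 0.12 for Havcr2 and from -0.034 to 0.25 for Lgals9. The causes of these changes were not tested. Lowering the filter added Pdcd1 to the members called higher, 3 in all, and Pdcd1 kept this call with each tumor left out (2.14 to 3.53), a check chosen after seeing the data. With the added scales chosen after seeing the data, summed CPM of all 10 T cell markers or of Cd3d, Cd3e and Cd3g, the T cell scale again gave 3 lower.

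Same-numbered tumors did not deviate together (correlations of -0.059, 0.057, 0.017 and -0.059), and the labels do not say whether the numbers pair tumors. With the replicate block 2477 genes were called higher and 2688 lower, and Pdcd1lg2 had an adjusted p of 0.0045; no member changed its call.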
